A study of Mus musculus with 564 samples.

Results

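The promoters of nuclear genes for the respiratory chain and ATP synthase were examined in mouse bone marrow-derived macrophages (BMDMs). A promoter was a cis-regulatory element (CRE) of the deposited table whose centre lay within 1000 bp of a RefSeq transcription start, on mm10, of a protein-coding gene whose symbol starts with Nduf, Sdh, Uqcr, Cox4 to Cox8 or Atp5. Of 100 genes under this rule, 91 had such a CRE, 1 each, which made 91 of 59190 CREs (0.154%). The 9 genes without a CRE were Cox4i2, Cox6a2, Cox7b2, Cox8b, Cox8c, Ndufaf3, Ndufb1, Ndufb4b and Ndufb4c. The mark followed by ChIP-seq, in 564 libraries, was H3K27ac, acetylation of lysine 27 of histone H3, which is known to lie at promoters and enhancers in use.

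The BMDMs came from wild type male mice of the C57/BL6 strain, 6 to 8 weeks old per the methods of the study, and all groups shared this genotype. For 1 h before the stimulus, cells received DMSO as vehicle or a clinical kinase inhibitor (CKI), of which there were 58. They were then left without stimulus (UT) or given LPS, which bacteria carry and TLR4 senses, or the cytokine IL-4, each at 10 ng/mL, for 30 min, 1 h, 2 h or 4 h. The 18 DMSO libraries formed 9 groups of 2 replicates, and most CKI groups held 1 library. The labels do not say whether replicates came from separate cultures or animals, so p-values measure the spread between libraries, which may be technical. Of 8 macrophage marker genes fixed as a list, 8 had a transcription start inside a CRE, with DMSO means of 167 to 2064, and of 18 markers of other blood, epithelial and stromal cells Camp alone did, with a mean of 37.6. By the rule on the centre of the CRE, the counts were 5 of 8 and 2 of 18, the latter Camp and Col1a1.

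The respiratory chain sits in the inner mitochondrial membrane. Complex I (the Nduf genes) takes electrons from NADH and complex II (Sdh) takes them from succinate, both pass them by ubiquinone to complex III (Uqcr), and complex IV (Cox) hands them from cytochrome c to oxygen. The proton gradient built on the way drives complex V (Atp5), which makes ATP. Macrophages given LPS are known to shift towards glycolysis and those given IL-4 to rely on oxidative phosphorylation. Mubritinib was developed as an inhibitor of the receptor tyrosine kinase ERBB2 and has been reported to inhibit complex I, which is the reason it is followed here in most detail. By symbol, the members comprised 38 complex I subunit genes, 7 complex I assembly factors, 4 genes each of complex II subunits and assembly factors, 8 of complex III, 13 of complex IV and 17 of complex V. Ndufa4 is counted by its symbol, although its protein is now taken to be a subunit of complex IV.

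The promoters printed first are those that the results turn on most: Ndufs8 fell after LPS, Cox8a and Cox6a1 rose after IL-4, and Ndufa4 was lower than DMSO with many CKIs. Each run holds the 200 bases before the transcription start, 5′ to 3′ on the strand of the gene, from RefSeq on GRCm38 (mm10), and capitals mark the letters GCATGCGC, a core of the site of NRF1, on either strand, where matches on both strands overlap in Cox6a1. All are on the minus strand, at chr19:3912775-3912974 (Ndufs8), chr19:7217617-7217816 (Cox8a), chr5:115348959-115349158 (Cox6a1) and chr6:11907451-11907650 (Ndufa4).
Ndufs8: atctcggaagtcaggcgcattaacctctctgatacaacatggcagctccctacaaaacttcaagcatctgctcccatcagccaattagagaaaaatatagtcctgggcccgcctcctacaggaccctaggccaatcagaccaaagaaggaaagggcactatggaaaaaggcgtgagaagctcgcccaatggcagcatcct
Cox8a: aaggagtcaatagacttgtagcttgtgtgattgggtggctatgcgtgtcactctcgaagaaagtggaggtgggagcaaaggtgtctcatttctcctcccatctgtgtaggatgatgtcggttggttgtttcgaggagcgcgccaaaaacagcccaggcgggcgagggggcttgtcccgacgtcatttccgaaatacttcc
Cox6a1: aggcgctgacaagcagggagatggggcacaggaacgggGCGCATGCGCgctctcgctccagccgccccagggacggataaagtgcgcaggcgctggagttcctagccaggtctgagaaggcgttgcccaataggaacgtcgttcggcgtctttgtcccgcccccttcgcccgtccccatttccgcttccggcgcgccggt
Ndufa4: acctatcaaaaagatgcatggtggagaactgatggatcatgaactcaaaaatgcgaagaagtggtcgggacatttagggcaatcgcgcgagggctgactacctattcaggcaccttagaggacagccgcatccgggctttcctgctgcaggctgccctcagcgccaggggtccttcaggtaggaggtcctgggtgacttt

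Motif letters were counted in RefSeq promoter windows of 250 bases before to 50 after the start, on both strands, for the 77 members with an entry in the promoter table. The NRF1 core GCATGCGC stood in 12 of 77 member promoters (15.6%), in 5.91% of 8821 genes with a promoter CRE and in 2.71% of all 32851 promoters of the table. NRF1, nuclear respiratory factor 1, is a known activator of respiratory genes. The letters AAGATGGC of YY1 stood in 11 members (14.3%, against 5.06% and 2.75%), and TGACCTTG, the site of the orphan receptor ESRRA, in 4 (5.19%, against 0.805% and 1.56%). CCGGAAGT, bound by ETS factors such as GABPA, stood in 5 (6.49%, against 9.58% and 3.89%). GGGCGG of SP1 stood in 46.8% (67.3% and 35.7%), and TATAAA in 9.09% (6.35% and 13.6%). The member windows had a median GC content of 58.3%, against 61.3% for genes with a promoter CRE and 52.7% for the table. A match is a description of letters and not a bound site.
Further stretches of 30 bases show such matches in other members, with the motif in capitals. They lie at chr15:102671070-102671099 for Atp5g2, chr15:82354356-82354385 for Ndufa6 and chr4:140961206-140961235 for Sdhb (NRF1), and at chr4:123718396-123718425 for Ndufs5 (ESRRA). The Sdhb gene is on the plus strand and the others are on the minus strand.
Atp5g2: ggctccggccGCGCATGCGCagagccttcc
Ndufa6: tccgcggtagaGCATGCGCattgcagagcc
Sdhb: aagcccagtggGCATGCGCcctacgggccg
Ndufs5: tttctcgagtgTGACCTTGctcaagtagca

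The respiratory chain promoters carried strong H3K27ac in DMSO cells. Per kb of CRE, the mean normalized read count over the 18 DMSO libraries had a median of 113.8 over the 91 members, against 74.5 over all 11507 promoter CREs and 25.8 over all CREs, and 74 members lay above the promoter median. By the count not divided by width, 60 members (65.9%) belonged to the strongest 20% of all CREs. The highest levels per kb were at Ndufs1, the largest subunit of the complex I peripheral arm (222), at Atp5pb (202) and Atp5l (201) of complex V, and at Ndufs8, an iron-sulfur subunit of complex I (190.2). The median per kb was 98.9 for complex I subunits, 80.5 for complex I assembly factors, 131 for complex II subunits, 68.8 for complex II assembly factors, 117 for complex III, 118 for complex IV and 124 for complex V. The spread differed among the complexes, from 4.47 to 222 for complex I subunits and from 116 to 166 for complex II subunits.

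Among the lowest levels were those of genes known for expression under other conditions or in other tissues. Ndufa4l2, a paralogue of Ndufa4 induced in hypoxia, had 4.47 per kb, and Cox6b2, the testis form of Cox6b, 4.57. Their DMSO means were 10.3 and 7.44 normalized reads, and Cox6b2 fell under the mean of 10 required for testing in the DMSO comparisons. Ndufa1 (38.8) and the muscle form Cox7a1 (41.4) came next. The other tissue forms of Cox genes, such as Cox6a2 and Cox8b, were among the genes with no member CRE. Replicates of the 9 DMSO groups correlated across the members with r of 0.963 to 0.982, a correlation across CREs and not across samples. A further gene start lay inside the CRE of 35 members (38.5%), against 10.7% of promoter CREs with starts of more than 1 gene, and reads there cannot be assigned to either gene. Widths were 1536 to 4973 bp with a median of 1871.

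**Figure D1:**
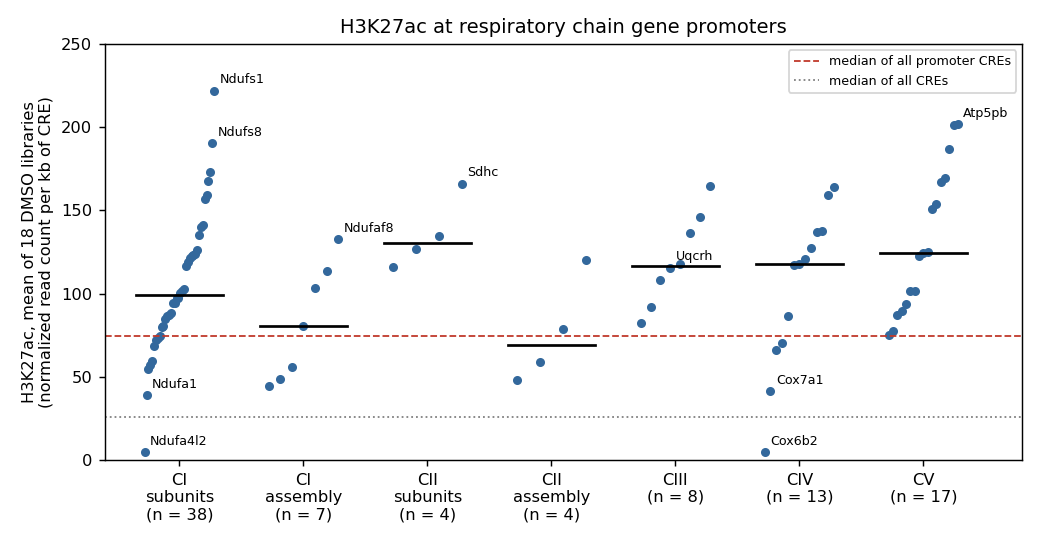
H3K27ac at each of the 91 member promoters as the mean of 18 DMSO libraries per kb of CRE, by complex (1 point per CRE, black bars for the median of a complex). Most points lie above the dashed line for all promoter CREs (74.5), and Ndufa4l2 and Cox6b2 lie near 4.5, far under the rest.

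The LPS time course of DMSO cells asked which of these promoters respond to a bacterial stimulus. Of 89 members tested, 6 were called (6.74%), where a call needed an absolute log2 difference from UT above 1 at any time together with an adjusted p below 0.01, against 53.5% of all CREs and 31.2% of promoter CREs. Of the 6, 5 were higher (background 29.0% of all and 14.4% of promoter CREs) and 1 was lower (24.6% and 16.8%). Among those that rose were Atp5mpl and Atp5md of complex V, Ndufs4 of complex I and the complex I assembly factor Ndufaf5. Ndufs8 fell. With the adjusted p alone, 45 of 89 members passed, against 67.0% of all CREs and 60.5% of promoter CREs.

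Ndufs8 encodes an iron-sulfur subunit on the electron path of complex I, and its CRE covers chromosome 19 from 3911107 to 3915621. It held 1137 and 1055 normalized reads in UT, 556 and 655 at 30 min of LPS, 563 and 559 at 1 h, 422 and 477 at 2 h, and 738 and 603 at 4 h. All 8 LPS libraries lay below both UT libraries, and the level was lowest at 2 h. The log2 difference at 2 h was -1.28 ± 0.11 (SE, n = 2 per group), with an adjusted p of 7.65e-11. Under IL-4 the same CRE stayed between 958 and 1311 in all 8 libraries. The CRE is 4515 bp wide, and the nearest start of another gene, Tcirg1, is 6231 bp from its centre.

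Atp5mpl, a small membrane subunit of ATP synthase, peaked at 30 min, the first time sampled. It held 160 and 151 in UT, 421 and 472 at 30 min, 266 and 246 at 1 h, 191 and 198 at 2 h and 232 and 222 at 4 h. Every LPS library lay above UT, and those at 30 min were highest, with a difference of 1.49 ± 0.15 (adjusted p 5.77e-10). Atp5md, another small subunit of ATP synthase, had its maximum at the same time, with 353 and 384 against 165 and 193 in UT (1.02 ± 0.14). Its CRE also holds the start of Pdcd11.

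Ndufs4, an accessory subunit whose loss causes complex I deficiency, rose late. It held 109 and 103 in UT, 150 and 153 at 30 min, 151 and 158 at 1 h, 221 and 208 at 2 h and 194 and 247 at 4 h, the time of its largest difference (1.01 ± 0.17). Ndufaf5, which modifies Ndufs7 during assembly, went from 120 in both UT libraries to 234 and 263 at 2 h (1.02 ± 0.16), with the start of Esf1 in the same CRE. The calls at the last 3 of these promoters lay near the log2 threshold. Ndufaf5 stood at 0.99 without replicate 2 of LPS 2 h, Atp5md at 0.96 without replicate 2 of LPS 30 min and 0.91 without replicate 1 of UT, and Ndufs4 at 0.98 without replicate 2 of LPS 4 h and 0.97 without replicate 2 of UT.

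Further members met the limit on adjusted p alone. Ndufs3 of complex I reached 0.99 at 4 h (254 in both UT libraries, 536 and 482 at 4 h) after 183 in both libraries at 30 min. Sdhaf1, an assembly factor of complex II, reached 0.95 at 1 h. On the lower side, Ndufb8 stood at -0.82 ± 0.18 at 30 min, with 107 and 120 against 210 and 197 in UT. Sdhb, the iron-sulfur subunit of complex II, stood at -0.65 ± 0.16 at 1 h, with 154 and 184 against 290 and 245. Uqcr11 of complex III stood at -0.60 ± 0.18 at 2 h, where its libraries held 148 and 94 against 183 and 181.

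Several members of a fixed panel, not all of which is listed here, were not called after LPS and gave smaller values. Ndufs1 held 317 and 334 in UT and 503 and 481 at 30 min (0.59 ± 0.12), and Uqcrfs1, the Rieske protein of complex III, 177 and 191 in UT and 268 and 308 at 1 h (0.63 ± 0.14). Complex II was divided: Sdhc stood at 0.57 ± 0.15 at 30 min and Sdhd at 0.40 ± 0.15 at 1 h, both with an adjusted p under 0.01, and Sdha at 0.50 ± 0.19 at 4 h with an adjusted p of 0.101. Ndufv1 (0.41 ± 0.19), Ndufaf1 (0.56 ± 0.17), Uqcrc1 (0.49 ± 0.17), Cox4i1 (0.36 ± 0.15), Cox5a (0.16 ± 0.14), Cox5b (0.50 ± 0.16), Cox7a2l (0.39 ± 0.13) and Ndufa4 (-0.28 ± 0.15) did not reach an adjusted p of 0.01.

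Over the tested members, the median log2 difference from UT was 0.19 at 30 min, 0.33 at 1 h, 0.30 at 2 h and 0.29 at 4 h. Over all promoter CREs it was -0.04, 0.11, -0.02 and 0.03. At 30 min the median was -0.10 for complex I subunits, 0.44 for complex IV and 0.42 for complex III. By a count that needs no model, both LPS libraries lay above both UT libraries in 48 members at 30 min, 61 at 1 h, 56 at 2 h and 62 at 4 h of 91, against 35.1%, 43.8%, 37.0% and 37.0% of promoter CREs. They lay below in 23, 13, 15 and 7 members, against 38.6%, 30.8%, 38.7% and 33.7% of promoter CREs. Over all CREs the shares above were 37.6%, 40.2%, 38.7% and 39.1%, and those below 31.9%, 32.9%, 36.0% and 32.9%. All these values share the same pair of UT libraries.

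**Figure D2:**
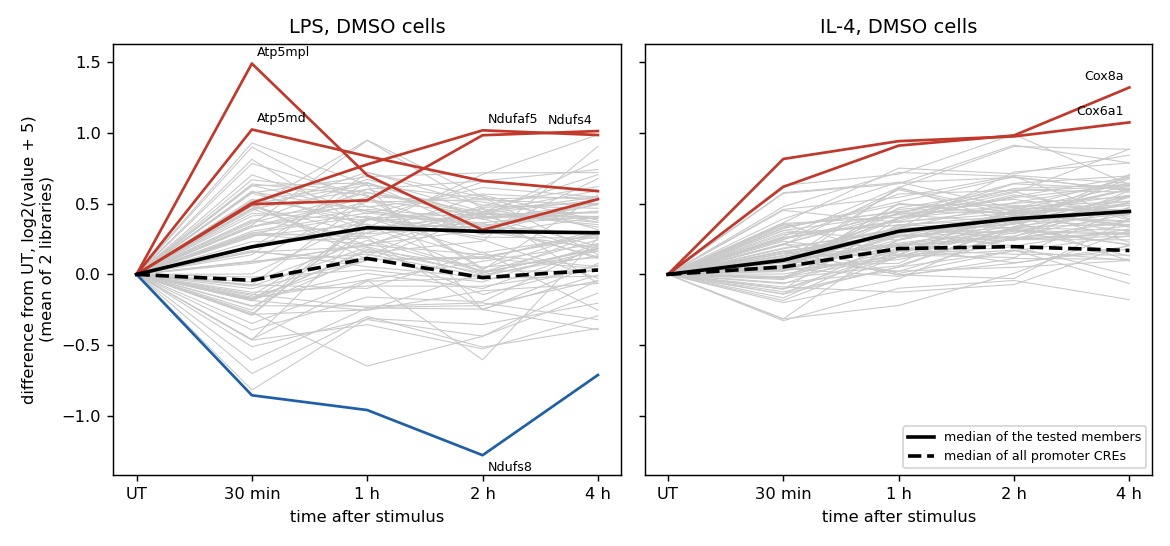
Log2 difference from UT, on log2(value + 5), at each tested member promoter after LPS (left) and IL-4 (right) in DMSO cells, with means of 2 libraries per time. Called members are coloured (red higher, blue lower) and named at their largest difference, 1 called member is left out, and the median of the members (solid) lies above that of all promoter CREs (dashed) at every time.

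After IL-4, the called members were Cox8a and Cox6a1, both subunits of cytochrome c oxidase. These were 2 of 90 tested members (2.22%), against 24.7% of all CREs and 7.46% of promoter CREs, and both rose, a direction called at 13.6% of all CREs and 4.94% of promoter CREs. No member passed both thresholds on the lower side, where 11% of all CREs and 2.52% of promoter CREs did. With the adjusted p alone, 50 of 90 members passed, against 46.2% of all CREs and 38.2% of promoter CREs.

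Cox8a, the ubiquitous form of a small complex IV subunit, held 178 and 179 in UT, 310 and 247 at 30 min of IL-4, 362 and 319 at 1 h, 386 and 331 at 2 h and 457 and 450 at 4 h. All 8 IL-4 libraries lay above UT and the highest pair was the last, with a log2 difference of 1.32 ± 0.12 (adjusted p 4.03e-12). The CRE lies on chromosome 19 from 7216697 to 7218971, with no other gene start in it.

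Cox6a1, the non-muscle form of a subunit at the dimer face of the complex, held 125 and 131 in UT, 251 and 209 at 30 min, 244 and 257 at 1 h, 275 and 239 at 2 h and 283 and 267 at 4 h. Again no IL-4 library overlapped UT (1.07 ± 0.13 at 4 h, adjusted p 3.19e-09). Its CRE lies on chromosome 5 from 115346974 to 115349852 and contains the NRF1 letters printed above.

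**Figure D3:**
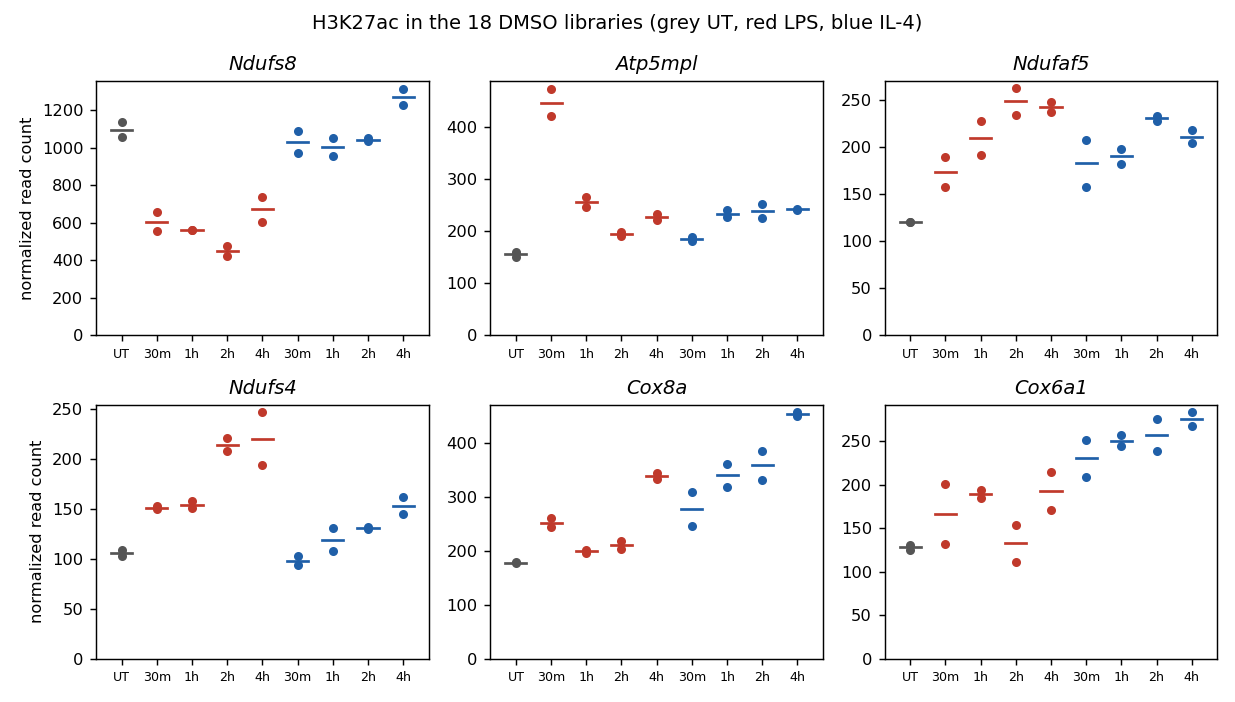
Normalized read counts at 6 member promoters in each of the 18 DMSO libraries, with points for the 2 replicates and bars for their mean. Ndufs8 fell in every LPS library, Atp5mpl, Ndufaf5 and Ndufs4 peaked at different times of LPS, and Cox8a and Cox6a1 were highest at 4 h of IL-4.

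Smaller differences after IL-4 were spread over the complexes. In complex V, the catalytic subunits Atp5b (448 and 436 at 4 h against 234 and 240 in UT, 0.89 ± 0.12) and Atp5a1 (357 and 349 against 196 and 209, 0.79 ± 0.12) passed the adjusted p only. Atp5e reached 0.90 ± 0.14 at 2 h, and was called at 1.02 without replicate 2 of IL-4 2 h or without replicate 1 of IL-4 4 h. Of the panel, Sdhd (0.59 ± 0.12 at 4 h), Uqcrc1 (0.65 ± 0.15 at 1 h), Ndufs1 (0.56 ± 0.11 at 2 h), Cox5a (0.53 ± 0.12 at 2 h) and Cox5b (0.55 ± 0.13 at 4 h) also met the limit on adjusted p. Ndufa4 had 0.10 ± 0.12. At Sdhb the values went from 290 and 245 in UT to 204 and 223 at 30 min and 313 and 352 at 4 h. Ndufa2 stood at -0.33 ± 0.13 at 30 min, with an adjusted p of 0.144.

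The median difference of the members grew with time, from 0.10 at 30 min to 0.30 at 1 h, 0.39 at 2 h and 0.44 at 4 h, against 0.05, 0.18, 0.20 and 0.17 for promoter CREs. At 4 h it was 0.56 for complex V, 0.48 for complex III, 0.48 for complex IV and 0.37 for complex I subunits. Both IL-4 libraries lay above both UT libraries in 37, 68, 81 and 80 of 91 members at the 4 times, which at 4 h is 87.9% against 46.8% of promoter CREs. At the other times the promoter shares were 33.5%, 49.2% and 49.8%, and over all CREs they were 34.9%, 31.6%, 29.5% and 32.4%. The IL-4 libraries lay below UT in 8, 2, 1 and 0 members, against 22.8%, 16.5%, 17.8% and 16.8% of promoter CREs and 22.3%, 28.2%, 33.3% and 27.7% of all CREs. The promoters of cytosolic ribosomal proteins, another set of strong housekeeping promoters, had medians of 0.19, 0.52, 0.71 and 0.51, above those of the respiratory chain.

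LPS and IL-4 were then compared directly in the 18 DMSO libraries. Of 90 members, 5 were called (5.56%), against 58.4% of all CREs and 33.9% of promoter CREs. Of these, 4 were higher after LPS (29.2% of all and 12.3% of promoter CREs) and 1 was lower (29.2% and 21.6%), and by the adjusted p alone 46 of 90 passed (72.9% and 67.8%). Among those higher after LPS were Atp5mpl (1.25 ± 0.14 at 30 min), Ndufa2 (1.11 ± 0.13 at 30 min) and Cox7a1 (1.10 ± 0.22 at 30 min), and lower was Ndufs8 (-1.21 ± 0.10 at 2 h). Ndufa2, an accessory subunit of complex I, held 482 and 484 at 30 min of LPS against 223 and 219 at 30 min of IL-4. Its CRE holds the start of Ik as well. Cox7a1 held 109 and 142 against 63 and 49.

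Not all 5 calls held without each library. Cox7a1 stood at 0.93 without replicate 2 of IL-4 30 min and 0.91 without replicate 2 of LPS 30 min. Among members that were not called, Ndufa13 stood at -0.82 ± 0.11 at 2 h and Cox8a at -0.76 ± 0.13 at 1 h. Cox6a1, called after IL-4, was not called between the stimuli either. Ndufb8, at -0.90 ± 0.16 at 30 min, was called at -1.05 without replicate 1 of IL-4 30 min. The median over members was 0.03 at 30 min and -0.15 at 4 h, against -0.11 and -0.18 for promoter CREs.

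The CKI libraries gave a separate view of both courses, since each CKI had its own UT library and none was shared with DMSO. In a fit of the 314 LPS and UT libraries of CKI cells, Ndufs8 was the 1 member of 91 called (background 28.9% of all CREs and 17.3% of promoter CREs, of these 13.5% and 10.9% lower and 15.4% and 6.44% higher), at -1.47 ± 0.05 at 2 h. It was lower than the UT library of the same compound in 58 of 58 CKIs at 30 min, 57 of 57 at 1 h, 55 of 55 at 2 h and 55 of 55 at 4 h. At 2 h its difference ranged from -2.00 to -0.55. Atp5mpl was higher at 30 min in 58 of 58 CKIs, with a fitted difference of 0.84 ± 0.05. Ndufa13 was lower at 30 min in 58 of 58 CKIs (-0.79 ± 0.05), and Ndufb8 in 57 of 58 (-0.70 ± 0.05). Ndufs3 stood at 0.64 ± 0.06 at 4 h, and Ndufaf7, an assembly factor of complex I, at -0.51 ± 0.06 at 4 h. By the adjusted p alone 84 of 91 passed, against 85.2% of all CREs and 91.1% of promoter CREs. After quantile normalization Atp5mpl was called as well, at 1.00.

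In the 305 IL-4 and UT libraries of CKI cells, limma called 0 of 91 members, against 8.84% of all CREs and 2.42% of promoter CREs, while 90 members had an unadjusted p under 0.05 and 89 an adjusted p under 0.01 (68.3% of all and 81.1% of promoter CREs). Higher calls made up 5.33% of all and 1.63% of promoter CREs, and lower calls 3.50% and 0.800%. Cox8a stood at 0.96 ± 0.04 at 4 h, just under the log2 threshold, and was higher than the matching UT library in 54 of 55 CKIs. Cox6a1 stood at 0.80 ± 0.05 at 2 h and was higher at that time in 54 of 56 CKIs. Ndufs8 was lower at 1 h in 53 of 58 CKIs, with a fitted difference of -0.28 ± 0.03. Without the CKI libraries of contrast under 10, an alternative chosen after the data were seen, Cox8a was called at 1.01. The contrast of a library is the median of the strongest 10% of CREs divided by that of the weakest 10%. The median over members was 0.36 at 4 h, against 0.17 for promoter CREs.

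Mubritinib was represented by 9 libraries, 1 for each condition, so its spread came from the fit of all compounds. Their estimated reads in CREs numbered 576948 to 4474663 and their contrasts 6.54 to 27.8. The DMSO libraries had contrasts of 53 to 134, with a median of 75.1, and the median CKI library had 17.6. In the column order of the table the CKIs fall into 6 runs that share no compound, and DMSO lies outside all of them, so a difference between a CKI and DMSO cannot be told apart from a difference between runs. The run of Mubritinib also held Talmapimod, TG100115, OSI930, MK2461, PF04691502, IMD0354, XL413, MK2206 and Lenvatinib.

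Against DMSO over the LPS course, 7 of 91 members were called with Mubritinib (7.69%), now with limits of 0.5 on the absolute log2 difference and 0.05 on the adjusted p, against 31.8% of all CREs and 19.5% of promoter CREs. Of these, 6 were lower (4.63% of all and 12.3% of promoter CREs) and 1 was higher (27.1% and 7.13%), and by the adjusted p alone 18 passed (34.2% and 27.3%). Lower in complex I, by symbol, were Ndufab1, the mitochondrial acyl carrier protein (-0.65 ± 0.23), Ndufs7, the subunit with the last iron-sulfur cluster before ubiquinone (-0.65 ± 0.18), Ndufa4 (-0.64 ± 0.17) and Ndufb11 (-0.53 ± 0.21). The others were the complex IV subunits Cox4i1 (-0.64 ± 0.18) and Cox5a (-0.50 ± 0.17). Ndufa4l2 was higher (1.29 ± 0.33). The median over members was -0.24, against -0.17 for promoter CREs and 0.34 for all CREs. After quantile normalization of the libraries, which brought the median of all CREs to -0.01, 0 of the 7 were called, with 128 lower calls left over all CKIs where there had been 369. The member median was then -0.08 and the promoter median -0.11, the opposite order.

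Ndufs7 with Mubritinib held 96 in UT, 91, 117, 128 and 112 at the 4 times of LPS and 142, 196, 195 and 317 at those of IL-4. In DMSO it held 160 and 165 in UT, 156 to 190 after LPS and 129 to 279 after IL-4. The Mubritinib value lay below the DMSO mean in 8 of 9 conditions and above both DMSO libraries at 4 h of IL-4. That last library had the lowest contrast of the 9.

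Cox4i1 with Mubritinib held 218 in UT, 174, 128, 209 and 203 over LPS and 201, 258, 251 and 198 over IL-4, below both DMSO libraries in 9 of 9 conditions. Ndufa4 held 137 in UT, 121, 117, 161 and 244 over LPS and 159, 143, 189 and 188 over IL-4, again below both DMSO libraries in 9 of 9, whose values were 188 to 285. The Cox4i1 CRE also holds the starts of Emc8 and Gm27021, that of Ndufa4 the start of Phf14 and that of Ndufb11 the start of Rbm10, so 3 of the 7 calls over LPS were at shared CREs. Ndufab1 held 47 at 1 h and 51 at 4 h of LPS and lay above both DMSO libraries at 30 min. Its call was lost without the 1 h library (-0.45), without the 4 h library (-0.45) and without DMSO replicate 2 (-0.59, adjusted p 0.103). That of Ndufb11 was lost without the same libraries (-0.43, -0.36 and -0.48) and without DMSO replicate 1 (-0.57, adjusted p 0.0732). The number of called members rose from 7 to 15 without the 2 h library of Mubritinib and to 11 without its UT library.

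**Figure D4:**
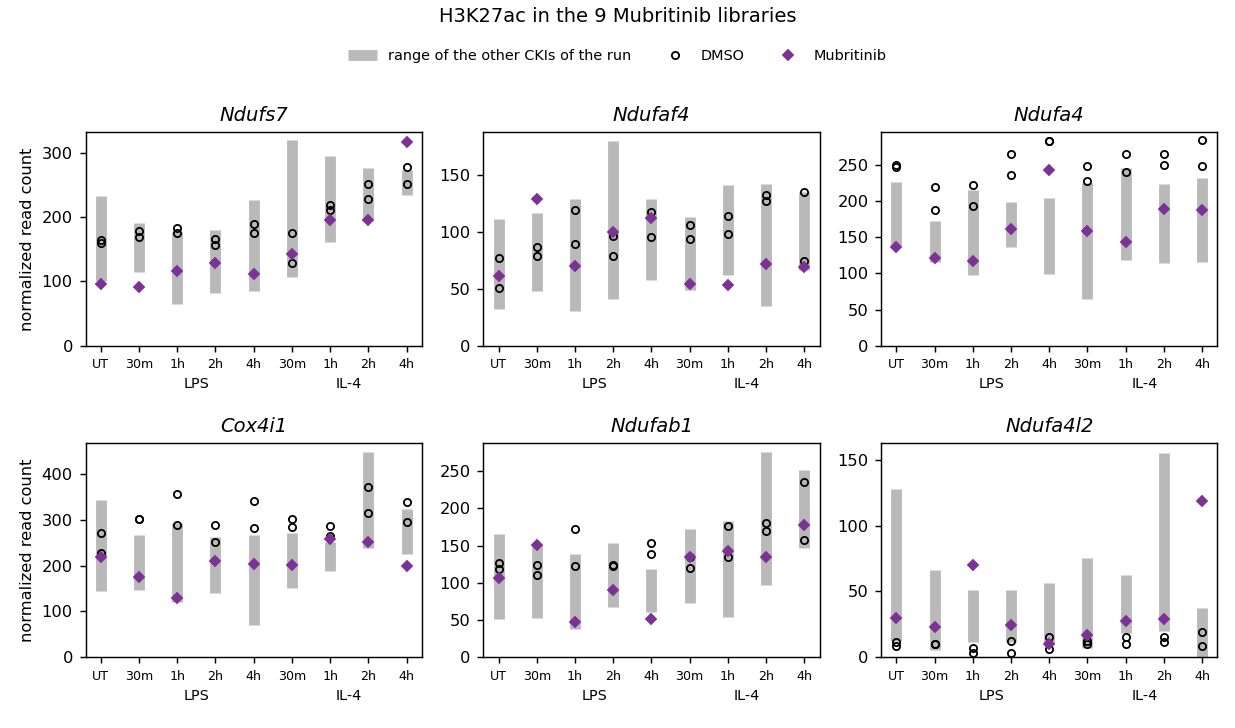
Normalized read counts at 6 member promoters in the 9 Mubritinib libraries (diamonds), the 18 DMSO libraries (circles) and the range of the other CKIs of the same run (grey bars). Ndufa4 and Cox4i1 lie below both DMSO libraries in 9 of 9 conditions, mostly inside the grey range, and Ndufs7 lies below the grey range in UT and at 30 min of LPS.

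Over the IL-4 course, 5 of 91 members were called (5.49%), against 51% of all CREs and 20% of promoter CREs. Of these, 3 were lower (2.32% of all and 5.17% of promoter CREs) and 2 higher (48.6% and 14.8%), and by the adjusted p alone 22 passed (57.6% and 36.1%). Lower were Ndufa4 (-0.63 ± 0.15), the assembly factor Ndufaf4 (-0.62 ± 0.18) and Cox5a (-0.60 ± 0.12), and higher were Cox6b2 (1.79 ± 0.36) and Ndufa4l2 (1.27 ± 0.30). Ndufaf4 held 54, 53, 72 and 69 at the 4 times of IL-4 with Mubritinib against 94 to 106, 98 to 114, 127 to 132 and 74 to 135 in DMSO. It was lower in 4 of 4 IL-4 conditions, while after LPS it held 129, 70, 100 and 112. Its call was lost without DMSO replicate 2 (-0.45, adjusted p 0.0675). Ndufa5 stood at 0.47 ± 0.17, and was called at 0.52 without the 1 h library and at 0.50 without DMSO replicate 2. The median over members was -0.09, against -0.02 for promoter CREs and 0.59 for all CREs, and after quantile normalization -0.10 against -0.12 for promoter CREs.

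The higher values at Ndufa4l2 and Cox6b2 were not particular to Mubritinib. Ndufa4l2 was called higher than DMSO with 55 of 58 CKIs in each course, and Cox6b2 with 48 in the LPS course and 50 in the IL-4 course. The median CKI library held 37 and 25 normalized reads there, against DMSO means of 10.3 and 7.44. After quantile normalization neither was called with Mubritinib, and Cox6b2 stood at -0.10 in the LPS course. Ndufa4 was called lower with 37 of 58 CKIs over LPS and 28 over IL-4, and its difference from DMSO was below 0 in 58 of 58 in both. All comparisons with DMSO share the same DMSO libraries, so such counts over CKIs are not of independent observations. Cox4i1 was called lower with 10 CKIs over LPS and Cox5a with 10 and 9. Ndufs7 was called lower over LPS with Mubritinib only.

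Compared with the other 57 CKIs, Ndufs7 was the 1 member called over LPS (-0.54 ± 0.14, adjusted p 0.0123), against 4.32% of all CREs and 6.23% of promoter CREs (3.52% and 5.97% lower, 0.798% and 0.261% higher). By the adjusted p alone 3 passed (4.97% and 8.44%). Ndufaf4 was the 1 called over IL-4 (-0.53 ± 0.15, adjusted p 0.0211), against 3% and 2.36% (0.825% and 1.77% lower, 2.18% and 0.591% higher), and by the adjusted p alone 5 passed (5.13% and 8.06%). Both calls rested on single libraries. That of Ndufs7 was lost without the Mubritinib UT library (-0.48, adjusted p 0.0600) and without that of LPS 30 min (-0.51, adjusted p 0.0503), and over its alternatives the adjusted p went up to 0.189. That of Ndufaf4 was lost without the IL-4 libraries of 30 min (-0.50), 1 h (-0.45) and 4 h (-0.54, adjusted p 0.0712), with an adjusted p of up to 0.131. Among members short of the log2 threshold, Atp5d of complex V stood at -0.49 ± 0.14 over LPS and was called at -0.61 without the UT library and at -0.63 without that of 30 min. Ndufb10 stood at -0.44 ± 0.14 and was called at -0.53 without the UT library. Over IL-4, Ndufaf8 (-0.43 ± 0.10) was called at -0.55 without the 2 h library and Ndufb5 (-0.40 ± 0.11) at -0.50 without the 30 min library, and Atp5j stood at -0.36 ± 0.10. On the higher side no member was called, with the lowest adjusted p at Uqcrq over LPS (0.25 ± 0.13) and at Cox7c over IL-4 (0.33 ± 0.12).

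Within its own run, Mubritinib differed from the other 9 CKIs at 0 of 91 members in both courses by limma, against 1.27% and 0.0575% of all CREs and 1.10% and 0.0435% of promoter CREs. Lower calls made up 1.20% of all and 1.06% of promoter CREs over LPS and 0.0440% and 0.0435% over IL-4, and higher calls 0.0710% and 0.0435%, and 0.0135% and 0. By the adjusted p alone the shares were 1.32% and 1.22%, and 0.0642% and 0.0695%. At an unadjusted p under 0.05 there were 4 members over LPS and 6 over IL-4. A share of 0.05 would pass that limit with no difference at all, and the promoter share is not given here. The differences ran from -0.43 (Ndufb10) to 0.40 (Uqcrq) over LPS and from -0.57 (Ndufaf4) to 0.39 (Cox7c) over IL-4, and the 95% interval lay inside ±0.5 for 70 and 85 members. Larger differences than that stay possible at the rest. At Ndufs7 the interval over LPS was -0.70 to -0.10 (adjusted p 0.189), and at Ndufaf4 over IL-4 it was -0.88 to -0.26 (adjusted p 0.129). At Ndufa4 the differences were -0.10 over LPS and -0.11 over IL-4, with intervals of -0.39 to 0.18 and -0.37 to 0.14.

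The effect of Mubritinib was also compared between the stimuli by an interaction term over the stimulated libraries. No member passed, with 0 of 91 by limma against 6.88% of all CREs and 4.77% of promoter CREs (0.754% and 0.374% higher, 6.13% and 4.4% lower). An unadjusted p under 0.05 was reached by 7 members, where a share of 0.05 would pass with no difference at all. The largest positive difference was at Ndufaf4, 0.86 ± 0.35 higher over LPS than over IL-4 (adjusted p 0.126). The largest negative difference was at Cox6b2, at -1.30 ± 0.59 (adjusted p 0.175). Atp5d stood at -0.61 ± 0.24, and was called at -0.84 without the LPS 30 min library. Cox7a2 stood at -0.59 ± 0.23 and was called at -0.73 without the LPS 4 h library. Ndufs7 stood at -0.56 ± 0.25.

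Across all 58 CKIs, more calls at member promoters were lower than DMSO (369) than higher (120) in the LPS course. In the IL-4 course 112 were lower and 141 higher. Shares of promoter CREs by direction are not given here for all CKIs, so these counts stand without a background by direction. Most of the higher calls in both courses were at the weak CREs of Ndufa4l2 (55 over LPS and 55 over IL-4) and Cox6b2 (48 and 50). The balance in the IL-4 course turned with the scaling, to 116 lower and 34 higher after quantile normalization and to 550 and 113 with each library scaled to the same total. Over LPS these scalings gave 128 lower and 18 higher, and 667 and 107. The median over members ran from -0.47 to 0.10 per CKI over LPS and from -0.20 to 0.11 over IL-4. With each CKI, 0 to 33 members were called lower over LPS (a median of 3) and 0 to 9 over IL-4 (a median of 1). Called higher were 0 to 5 and 1 to 6. In 54 of 58 CKIs over LPS and 58 of 58 over IL-4, the share of members called was below the share of promoter CREs called with the same CKI.

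The lowest member median over LPS was with AZD2014, an mTOR inhibitor (median -0.47, 33 members lower). The dual PI3K and mTOR inhibitors Omipalisib (-0.36, 25 lower) and PF04691502 (-0.36, 20 lower) followed, and then AMG208 (-0.35). AZD2014, Omipalisib and AMG208 fall in the same run. BGT226 and Apitolisib, named as PI3K inhibitors in the study, ranked 14 and 23 of 58 (medians -0.22 and -0.16). PH797804, an inhibitor of p38, had a median of -0.33 with 28 lower. With it, 33.0% of members were called in either direction, against 39.9% of promoter CREs and 58.2% of all CREs. The order depended on the scaling, since the lowest median over LPS was that of Bafetinib (-0.26) after quantile normalization and that of PH797804 (-0.47) with equal totals. With AZD2014, Omipalisib and PF04691502, 39.6%, 29.7% and 24.2% of members were called in either direction. The shares were 39.8%, 37.2% and 31.9% of promoter CREs and 53.3%, 58.9% and 45.9% of all CREs. By calls in either direction, none exceeded the promoter share. The counts of lower members per CKI stand without a background by direction. Over IL-4, Apatinib (-0.20) and AZD2014 (-0.19) had the lowest medians, and after the same scalings XL413 (-0.17) and Silmitasertib (-0.46) did. Mubritinib ranked 12 of 58 over LPS and 17 of 58 over IL-4 from the lowest, and 3 and 6 of 10 within its run. Its ranks among the 58 were 22 and 12 after quantile normalization and 17 and 16 with equal totals.

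Library contrast moved with these values. The 10 CKIs with the lowest member medians over LPS had median contrasts of 6.47 to 15.8 and 14 to 33 members lower, and the 10 with the highest had 16.1 to 40 and 0 to 1. The part of contrast in the differences was not tested beyond the scalings. The member median lay below the promoter median with 58 of 58 CKIs in both courses, and with 39 and 40 of 58 after quantile normalization. The 58 comparisons of a course share the same DMSO libraries, and both courses share the UT libraries, so these counts are not of independent observations.

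**Figure D5:**
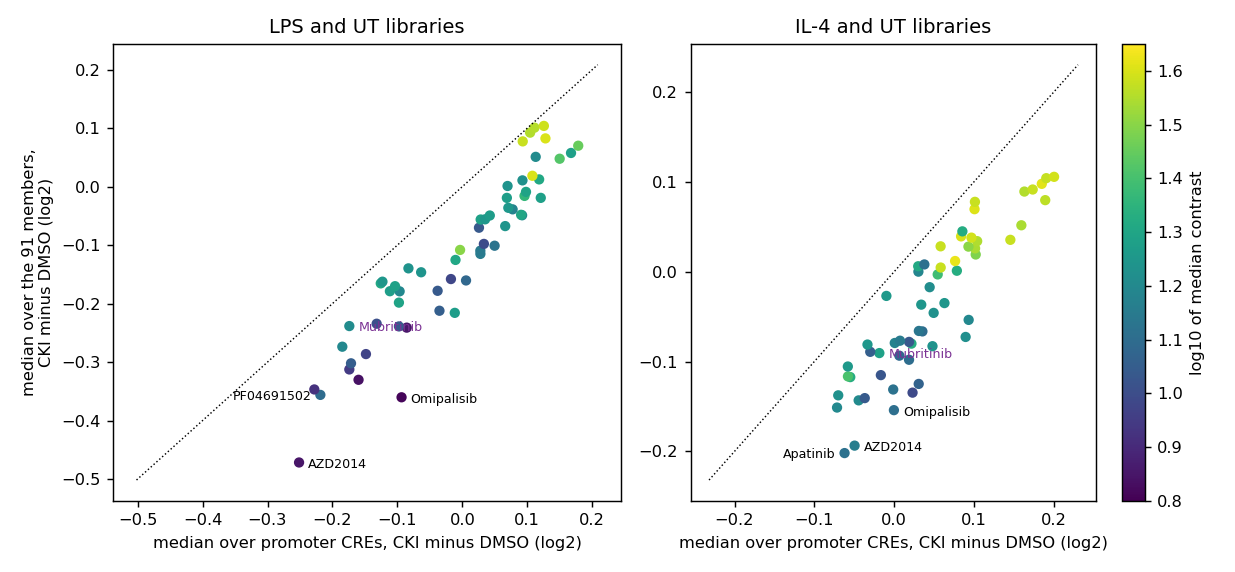
Median log2 difference from DMSO over the 91 members against that over all promoter CREs, with 1 point per CKI (58) for each course, coloured by log10 of the median library contrast. All points share the DMSO libraries and lie under the dotted line of equality. The CKIs with the lowest member medians over LPS (AZD2014, Omipalisib, PF04691502) have low contrast.

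Genes of the pathway outside the symbol rule were read from fixed lists. Of 35 further assembly factors, 11 were called after LPS (31.4%), 8 higher and 3 lower, close to the 31.2% of promoter CREs and below the 53.5% of all CREs called in the same test. Cox17, a copper chaperone of complex IV, held 185 and 168 in UT and 544 and 480 at 1 h (1.51 ± 0.14). Cox18 reached 1.80 ± 0.13 at 2 h and Coa5 1.37 ± 0.13, while Cox14 fell by 1.29 ± 0.15, Pet117 by 1.25 ± 0.15 and Sco2 by 1.20 ± 0.19. None of the 35 was called after IL-4 by limma, where 21 had an unadjusted p under 0.05. The promoter share at that limit is not given here.

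Of 11 carriers and further subunits, 3 were called after LPS (27.3%, against the same 31.2% and 53.5%). AA467197, a paralogue of Ndufa4, held 23 and 16 in UT, 28 and 39 at 30 min, 91 and 100 at 1 h, 160 and 208 at 2 h and 203 and 191 at 4 h (3.06 ± 0.23). All LPS libraries lay above UT, and those at 2 h and 4 h overlapped each other, while the Ndufa4 promoter held 284 and 283 at 4 h against 250 and 247 in UT. Cycs, the gene of cytochrome c, rose by 1.16 ± 0.12 and Ucp2, a carrier of the inner membrane, fell by 1.40 ± 0.15. AA467197 was also called after IL-4 (1.35 ± 0.28), 1 of the 11 against 7.46% of promoter CREs and 24.7% of all CREs.

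Among 15 CREs of regulators, 4 were called after LPS (26.7%, again against 31.2% of promoter CREs and 53.5% of all CREs). A CRE of Gabpb1 with a mean of 27.2 reads and Tfam rose after LPS, and Ppargc1b, a coactivator of respiratory genes, fell by 1.33 ± 0.16 at 30 min. Ppargc1a was also called higher, but its DMSO mean was 7.61 reads and its UT mean 3.5. Its adjusted p by limma, 0.00892, was close to the limit of 0.01. After IL-4, 2 of 14 tested were called, against 7.46% of promoter CREs and 24.7% of all CREs. Ppargc1b rose by 1.14 ± 0.11 at 2 h, and the same CRE of Gabpb1 by 1.73 ± 0.36. That Gabpb1 CRE had a UT mean of 5.5 reads, and the stronger Gabpb1 CRE (DMSO mean 501.6) was not called after either stimulus. In the TCA cycle, 4 of 14 were called after LPS (28.6%, also near the promoter share). Ogdh and Dld rose by 1.19 ± 0.15 and 1.14 ± 0.18, and Idh2 and Fh1 fell by 2.18 ± 0.24 and 1.11 ± 0.17. Of 77 promoter CREs of cytosolic ribosomal proteins, 13.0% were called after LPS and 5.19% after IL-4, and of 80 of mitochondrial ribosomal proteins 12.5% and 1.25%, against 31.2% and 7.46% of promoter CREs and 53.5% and 24.7% of all CREs.

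With Mubritinib, Pet100, a chaperone in complex IV assembly, was lower than DMSO in both courses (-0.90 ± 0.18 over LPS and -0.74 ± 0.16 over IL-4) and lower than the other 57 CKIs in both (-0.63 ± 0.15 and -0.62 ± 0.13). Against the other CKIs, 4 of the 35 further assembly factors were lower over LPS (11.4%, against 5.97% of promoter CREs and 3.52% of all CREs), namely Pet100, Uqcc2 (-0.52 ± 0.16), Tmem70 (-0.52 ± 0.14) and Cox14 (-0.51 ± 0.13), and 2 over IL-4, Pet100 and Atpaf2 (-0.61 ± 0.13), against 1.77% and 0.825%. Of the 15 regulator CREs, 2 were lower over LPS, those of Ppargc1b (-0.70 ± 0.15) and Esrra (-0.63 ± 0.15). Against DMSO over LPS, 5 of 35 assembly factors (all lower) and 5 of 15 regulator CREs were called (14.3% and 33.3%, against 19.5% of promoter CREs and 31.8% of all CREs), and the pair of Nrf1 CREs went opposite ways (1.11 ± 0.29 and -0.62 ± 0.17). Within the run of Mubritinib, limma called 0 of the 35 assembly factors and 0 of the 15 regulator CREs in both courses. An unadjusted p under 0.05 was reached by 3 and 5 over LPS and by 4 and 1 over IL-4. The promoter shares at that limit are not given here.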

How the data were processed

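H3K27ac ChIP-seq was analysed from a table of 564 libraries. The authors trimmed single-end reads, mapped them to mm10 with ShortStack (Bowtie and SAMtools are named in the submitters' processing notes), counted them in CREs from ATAC-seq, scaled libraries on invariant peaks and deposited normalized read counts rounded to whole numbers, taken here as a score. No count model was fitted.

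Members were found with RefSeq on GRCm38. limma 3.58.1 (R 4.3.3) was run on log2(value + 5), which understates changes of low CREs, over CREs with a mean of at least 10, with Benjamini-Hochberg adjustment. Stimulus tests used a moderated F statistic over the 4 times, and differences are given at the time where they were largest. CKI tests used 1 coefficient per compound beside time, in 324 LPS and UT or 315 IL-4 and UT libraries. The scripts were tested on simulated data. Reads per library, which set the counting error, could be estimated from the spacing of values in 9 of 18 DMSO libraries (2346043 to 6050405) and 472 of 546 CKI libraries (173059 to 6611770). Alternatives were the pseudocount, the filter, the scaling, the log2 threshold, the reference, a replicate block and leaving out libraries.

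Members, gene lists and tests were chosen with earlier results of these data known. Named were a fixed panel of members and, per comparison and direction, the 5 called members with the largest difference, or with fewer than 3 called also the 3 with the lowest adjusted p. Other members and genes were named after their values were seen. The label of UT names 4 h without stimulus and its title time 0. The values of 1 member are not reported here, although it is kept in the counts and medians.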

Additional observations from a re-analysis of the deposited data

How the results depend on the processing

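Counts of called members depended on the log2 threshold, the scaling and single libraries. With a lower log2 threshold (0.5 for stimuli, 0.25 for CKIs), the counts were 40 (LPS), 37 (IL-4), 35 (LPS against IL-4), 20 and 7 (LPS and IL-4 in CKI cells), 18 and 21 (Mubritinib against DMSO over LPS and IL-4) and 3 and 5 (against the other CKIs). A pseudocount of 20 gave 3 after LPS, 1 after IL-4, 0 and 0 for Mubritinib against the other CKIs and 72 lower calls over all CKIs in the IL-4 course, which had 112, and a pseudocount of 1 gave 2 for Mubritinib against the other CKIs over LPS. Quantile normalization gave 2 after LPS in CKI cells, 0 and 3 for Mubritinib against DMSO, 0 for Mubritinib against the other CKIs over LPS and 128 lower calls over all CKIs over LPS. Scaling to the same total gave 3 after LPS, 9 for LPS against IL-4 (4 higher, 5 lower), 13 and 17 for Mubritinib against DMSO, 0 against the other CKIs over LPS, and 667 and 550 lower calls over all CKIs. The run of Mubritinib as reference gave 0 and 0. Stimulated libraries alone gave 12 and 8 against DMSO. Without libraries of contrast under 10 (100 of the CKI libraries, chosen after the data were seen), 1 member was called after IL-4 in CKI cells and 3 for Mubritinib against the other CKIs over LPS.
Leaving out single libraries gave 5 to 8 after LPS, 2 to 4 after IL-4, 4 to 7 for LPS against IL-4, 4 to 15 and 5 to 8 for Mubritinib against DMSO, 1 to 2 and 0 to 2 against the other CKIs and 0 to 1 for the interaction. At Sdhb after IL-4 the largest difference was between -0.43 (without replicate 2 of UT) and 0.43, and became positive at 0.31, 0.39 and 0.43 without replicate 1 of IL-4 30 min, of IL-4 4 h and of UT, and Cox6b2 with Mubritinib over LPS became -0.10 after quantile normalization. Deviations of same-numbered DMSO libraries had r of -0.09 to 0.07 over 36 pairs of groups, 0 over 0.1, so no shared replicate effect was seen. Whether the replicate numbers pair libraries by culture or animal cannot be told from these values. The fit with the replicate block gave 6, 2 and 5 calls for LPS, IL-4 and LPS against IL-4. Over all alternatives, 109 of 157 counts stayed within 1.5 times the reported count. Of the values at single members, 970 kept direction and call, 46 lost the call, 20 gained it and 4 changed direction.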
